A study of Homo sapiens with 6 samples.

Results

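The genes described here are 10 regulators and markers of the epithelial-mesenchymal transition (EMT), taken by symbol from an expression table of 26255 genes. They are the filament and matrix genes VIM and FN1, the transcription factors ZEB1, ZEB2, SNAI1, SNAI2 and TWIST1, and the epithelial genes EPCAM, ESRP1 and GRHL2. All 10 were in the table. The rule that selects them is by name alone, but the genes were proposed with earlier results of these data known. RNA was sequenced from H1299 cells, a human lung cancer cell line, in 3 libraries with a control shRNA (shControl) and 3 libraries with an shRNA against Ephexin1 (shEphexin1), a guanine nucleotide exchange factor encoded by NGEF. Both groups carried a pSilencer vector with a U6 promoter, were grown in the same serum-containing medium, and received no other agent that the labels name. The shEphexin1 libraries share 1 name stem in the labels, and nothing states that the 3 libraries of a group came from separate clones or cultures, so the p-values measure only the spread between these libraries, which may be technical.

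In the EMT, cells that are joined by E-cadherin junctions lose these contacts and gain a vimentin cytoskeleton, a fibronectin matrix and motility. Factors of the ZEB, SNAI and TWIST families bind E-box sequences in the promoters of epithelial genes and repress them with corepressor complexes, whereas GRHL2 and the splicing factor ESRP1 maintain the epithelial state. Carcinoma lines of the lung range from epithelial to mesenchymal, and the transition has been linked to invasion and drug resistance.

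Expression is given as FPKM, fragments scaled to transcript length and library size, so levels can be compared between genes. Fold changes are of FPKM + 0.1, which understates changes of low genes, and a gene was tested if it reached 0.1 FPKM in at least 3 libraries. A gene was called when its Benjamini-Hochberg adjusted p in limma did not exceed 0.025 and its fold difference was 2 or more. Of the 16020 genes tested, 303 (1.89%) were called, 143 higher (0.893%) and 160 lower (0.999%) in the Ephexin1-depleted cells. The files hold no read counts, so the depth of each library and the counting error are unknown, and a value of 0 means only that a gene is listed at 0. H3F3A, a histone gene that every cell uses, was also listed at 0 in all 6 libraries.

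The targeted gene NGEF was measured at 13.3, 11.7 and 16.4 FPKM in the 3 shControl libraries, against 9.81, 8.25 and 10.5 FPKM in the shEphexin1 libraries. Its mean in shEphexin1 was 68.9% of that in shControl and the groups did not overlap, but it was not called (log2 fold change −0.53, SE 0.163, limma adjusted p = 0.103). With replicates 1 and 3 alone its log2 fold change was −0.54 (limma adjusted p = 0.0338), and with a term for replicate 2 the limma adjusted p was 0.00572, in each case below a fold of 2. Replicate 2 of both groups stood apart from replicates 1 and 3 of its group. The values without it are therefore given for NGEF, for the EMT genes tested and for the count of epithelial markers called. The lung lineage markers NKX2-1 and SCGB1A1 were listed at 0 in all 6 libraries, and 7 such markers summed to 0.316 to 0.621 FPKM with shControl and 0.445 to 0.636 FPKM with shEphexin1. Of 8 markers of leukocytes, endothelium and other cell types, 3 were listed at 0 everywhere. Their sum, 37.9 to 53.6 FPKM with shControl and 53.7 to 71.2 FPKM with shEphexin1, was almost entirely CD68, a lysosomal protein that is abundant in macrophages, and its part in the results was not tested. In bulk RNA, fewer cells of a type and less RNA per cell cannot be told apart.

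ZEB1 and ZEB2 were the most abundant of the EMT transcription factors among the 10 genes, and the E-box that both proteins bind was therefore looked for in promoters. The motif was CACCTG or its reverse complement CAGGTG, so that both strands were read, in the 250 bases before each RefSeq transcription start (build GRCh38.p14). It was present in 6143 of 35116 such windows (17.5%). Of the 10 genes, 4 had windows that were searched (VIM, FN1, ZEB1 and ZEB2), and EPCAM, SNAI1 and TWIST1 had none at hand. The remaining genes of the 10 were not examined, so whether they hold the motif was not tested. Among the 4 genes searched, only ZEB1 held the motif, in 2 of its 7 windows. Of 9 genes called in the related lists below, which all had windows, MUC1 and DSP held it. The 17.5% is a share of windows, whereas these genes are counted by any of their windows, so the measures are unlike. The windows are printed 5′ to 3′ in the direction of the gene, in lower case with each motif in capitals, for ZEB1 (chr10:31318966-31319215, plus strand), ZEB2 (chr2:144520120-144520369, minus strand), MUC1 (chr1:155192916-155193165, minus strand) and DSP (chr6:7541421-7541670, plus strand). They show a ZEB gene with and one without the motif, and the epithelial genes that were called and held it.
ZEB1: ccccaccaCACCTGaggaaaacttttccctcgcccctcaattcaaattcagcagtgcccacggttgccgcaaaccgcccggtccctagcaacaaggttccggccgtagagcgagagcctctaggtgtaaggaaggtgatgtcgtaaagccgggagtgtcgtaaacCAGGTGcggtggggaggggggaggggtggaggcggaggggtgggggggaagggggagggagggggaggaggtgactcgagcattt
ZEB2: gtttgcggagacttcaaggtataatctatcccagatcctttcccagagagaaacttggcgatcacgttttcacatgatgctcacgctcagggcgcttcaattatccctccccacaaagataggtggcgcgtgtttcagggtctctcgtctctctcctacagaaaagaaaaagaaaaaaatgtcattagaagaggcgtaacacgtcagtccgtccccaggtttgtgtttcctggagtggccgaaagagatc
MUC1: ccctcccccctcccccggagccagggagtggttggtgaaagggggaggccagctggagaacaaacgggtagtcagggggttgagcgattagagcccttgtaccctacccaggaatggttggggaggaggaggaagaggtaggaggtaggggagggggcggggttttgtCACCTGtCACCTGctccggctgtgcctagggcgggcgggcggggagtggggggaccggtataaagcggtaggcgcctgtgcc
DSP: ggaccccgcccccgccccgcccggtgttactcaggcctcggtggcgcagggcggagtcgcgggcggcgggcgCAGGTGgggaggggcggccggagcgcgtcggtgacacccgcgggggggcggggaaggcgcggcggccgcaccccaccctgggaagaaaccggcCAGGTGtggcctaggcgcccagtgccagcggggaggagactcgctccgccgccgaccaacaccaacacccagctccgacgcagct
A match of 6 letters is a description of the window and does not show that a protein binds there.

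None of the 10 genes was called in Ephexin1-depleted cells. VIM, FN1, ZEB1, ZEB2 and TWIST1 were at 5.46 FPKM or more in every library, and SNAI2 and GRHL2 were listed at 0 in every library. Of the 8 genes that passed the filter, 7 had a fold change above 0 and 1 below, against 48.9% above 0 among all genes tested. The median log2 fold change was 0.23 for the 8 genes and −0.0093 for all genes tested. In limma without further terms, 0 of the 8 passed the adjusted p at any fold, which 3.41% of all genes did, and 2 of the 8 (ZEB2 and EPCAM) had an unadjusted p under 0.05, as did 3737 of all 16020 genes. The groups did not overlap for 3 of the 8 genes (FN1, ZEB2 and EPCAM), all higher in shEphexin1, where 28.3% of all genes tested were separated in either direction and 12.8% higher in shEphexin1. EPCAM passed the filter only through the shEphexin1 libraries, so it had to differ, and the counts over the 8 genes are not support for a direction. With replicates 1 and 3 alone the median was 0.26 and again 0 of the 8 were called.

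**Figure D1:**
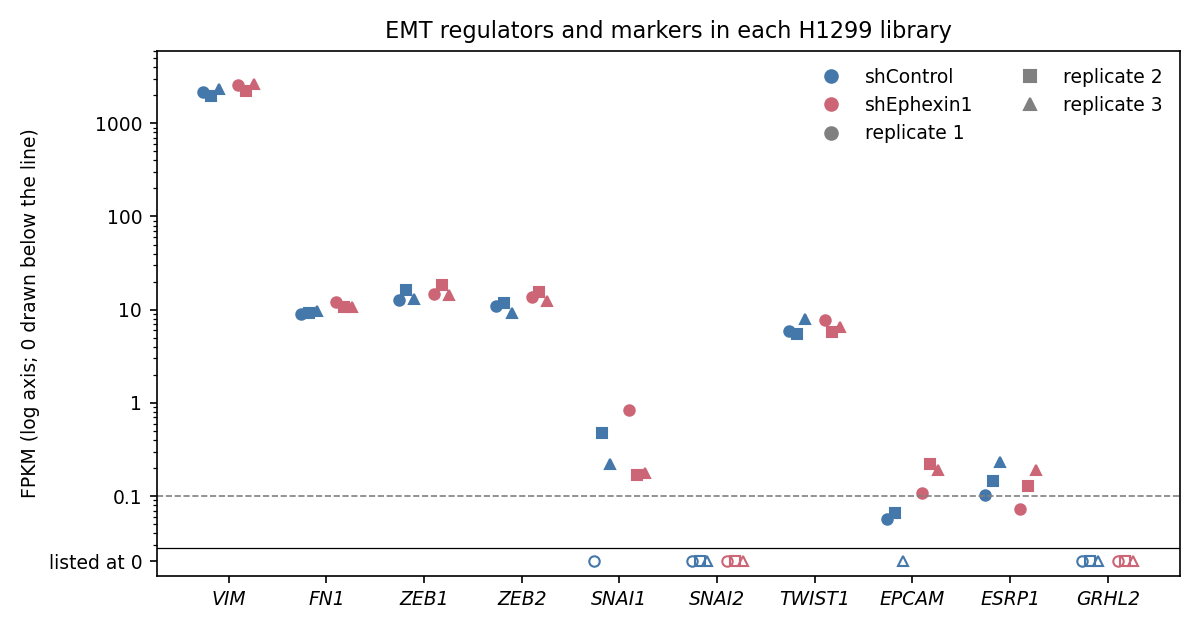
FPKM of the 10 genes on a logarithmic axis, with 1 point per library for 3 shControl and 3 shEphexin1 libraries and the filter of 0.1 FPKM as a dashed line. VIM lies between 1979 and 2670 FPKM, ZEB1, ZEB2, FN1 and TWIST1 between 5.46 and 18.3 FPKM, and SNAI1, EPCAM and ESRP1 below 1 FPKM, while SNAI2 and GRHL2 are listed at 0.

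VIM encodes vimentin, the intermediate filament protein of mesenchymal cells (chromosome 10, 17270240 to 17279592, plus strand, GRCh37). It reached 2181, 1979 and 2334 FPKM with shControl, whereas the shEphexin1 libraries held 2566, 2240 and 2670 FPKM. This placed VIM among the most abundant genes of the table, at rank 16 or 17 in each shControl library and 11 or 12 in each shEphexin1 library. The groups overlapped, since shEphexin1 replicate 2 lay below shControl replicate 3. The means were 2165 ± 178 and 2492 ± 225 FPKM (SD, n = 3), which is a log2 fold change of 0.20 (SE 0.119, limma adjusted p = 0.366). Its 95% interval of the fold reached from 0.949 to 1.39. Quantile normalization, which forces the same distribution on every library, gave 0.49 with a limma adjusted p of 0.00435, still below a fold of 2. Without replicate 2 of either group, VIM had a log2 fold change of 0.21 (limma adjusted p = 0.170).

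FN1 encodes fibronectin, a matrix glycoprotein (chromosome 2, 216225163 to 216300796, minus strand). It had values of 8.89, 9.28 and 9.61 FPKM under shControl, and of 12.1, 10.6 and 10.8 FPKM under shEphexin1. Every shEphexin1 library was above every shControl library, by a small margin. The log2 fold change was 0.27 (SE 0.115, limma adjusted p = 0.220), with a 95% interval from −0.0035 to 0.54. It was 0.30 with replicates 1 and 3 alone (limma adjusted p = 0.113). VIM and FN1 differed widely in level although both are mesenchymal effectors. The ratio of VIM to FN1 in FPKM was 213 to 245 in the shControl libraries and 211 to 248 in the shEphexin1 libraries.

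ZEB1 is a zinc finger and homeodomain repressor of CDH1 and other epithelial genes (chromosome 10, 31607424 to 31818742, plus strand). It gave 12.7, 16.4 and 12.9 FPKM in control cells, compared with 14.9, 18.3 and 14.3 FPKM after Ephexin1 depletion. The groups overlapped, and replicate 2 was the highest library of both, at 1.29 and 1.25 times the mean of replicates 1 and 3. The log2 fold change was 0.18 (SE 0.155, limma adjusted p = 0.560), with a 95% interval from −0.19 to 0.54. Without replicate 2 of both groups it was 0.19 (limma adjusted p = 0.208).

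ZEB2, its paralog, has the same domains and targets many of the same genes (chromosome 2, 145121931 to 145278624, minus strand). It was measured at 10.8, 11.9 and 9.32 FPKM in the 3 shControl libraries, against 13.6, 15.3 and 12.3 FPKM in the shEphexin1 libraries. The groups did not overlap, and replicate 2 was again the highest library of each, at 1.18 and 1.19 times the mean of the other two. The means were 10.7 ± 1.28 and 13.7 ± 1.53 FPKM (SD, n = 3), which is a log2 fold change of 0.36 (SE 0.142) with a 95% interval of the fold from 1.02 to 1.62. Its limma adjusted p was 0.184 over all 6 libraries, 0.0855 with replicates 1 and 3 alone and 0.0179 with a term for replicate 2, and the fold stayed under 2 in each. ZEB1 exceeded ZEB2 in every library, by 1.17 to 1.38 times in shControl and by 1.10 to 1.19 times in shEphexin1.

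VIM, ZEB1 and ZEB2 each overlap an antisense gene, and although the library kit keeps strand, the strand setting of the counting was not given in the sources used here. VIM-AS1 was at 4.94 to 8.48 FPKM, ZEB1-AS1 at 4.22 to 6.97 FPKM and ZEB2-AS1 at 0.286 to 1.12 FPKM over the 6 libraries. Each was lower than its sense partner in every library. The overlaps span 1778, 1953 and 3080 bases.

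SNAI1 encodes Snail, a zinc finger repressor whose protein turns over quickly (chromosome 20, 48599517 to 48605423, plus strand). It reached 0, 0.481 and 0.223 FPKM with shControl, whereas the shEphexin1 libraries held 0.846, 0.168 and 0.177 FPKM. The highest and the lowest library were replicate 1 of each group, and the groups overlapped. The log2 fold change was 0.64 with an SE of 0.746 (limma adjusted p = 0.672). It was −0.070 without shControl replicate 1 and 1.51 with replicates 1 and 3 alone (limma adjusted p = 0.228), so the direction rested on single libraries. SNAI2, which encodes the related repressor Slug (chromosome 8, 49830157 to 49834299, minus strand), was listed at 0 in all 6 libraries.

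TWIST1 encodes a basic helix-loop-helix factor that induces mesenchymal genes (chromosome 7, 19060614 to 19157259, minus strand). It had values of 5.85, 5.46 and 8.02 FPKM under shControl, and of 7.84, 5.71 and 6.59 FPKM under shEphexin1. The groups overlapped fully, and replicate 2 was the lowest library of each, at 0.788 and 0.791 times the mean of replicates 1 and 3. The log2 fold change was 0.067 (SE 0.192, limma adjusted p = 0.881), with a 95% interval from −0.38 to 0.52. Replicates 1 and 3 alone gave 0.069 (limma adjusted p = 0.819). The estimate was −0.040 without shControl replicate 2 and −0.049 without shEphexin1 replicate 1. Expressed genes within 10 Mb of TWIST1 had a median log2 fold change of −0.21.

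EPCAM encodes an epithelial adhesion molecule (chromosome 2, 47572297 to 47614740, plus strand). It gave 0.0565, 0.0663 and 0 FPKM in control cells, compared with 0.108, 0.220 and 0.192 FPKM after Ephexin1 depletion. All 3 shEphexin1 libraries were above the shControl libraries, at the lowest mean level of the 8 tested genes. The log2 fold change was 0.97 (SE 0.372, limma adjusted p = 0.175), and 0.98 with replicates 1 and 3 alone (limma adjusted p = 0.261). It moved from 2.25 at a pseudocount of 0.01 FPKM to 0.17 at a pseudocount of 1 FPKM, so its size is not fixed by these data. Among tested genes with a mean of at least 1 FPKM, the patterns closest to EPCAM over the 6 libraries were those of ANKRD13A (Pearson r = 0.991), PATE4 (r = 0.988) and SUMO4 (r = 0.986), given as a description.

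ESRP1 encodes a splicing factor that favours epithelial exons (chromosome 8, 95653302 to 95719694, plus strand). It was measured at 0.102, 0.147 and 0.231 FPKM in the 3 shControl libraries, against 0.0735, 0.128 and 0.192 FPKM in the shEphexin1 libraries. The groups overlapped, and the log2 fold change was −0.17 (SE 0.355, limma adjusted p = 0.830), or −0.20 with replicates 1 and 3 alone (limma adjusted p = 0.822). It turned to 0.0196 without shControl replicate 3 and 0.0209 without shEphexin1 replicate 1. The median log2 fold change of expressed genes within 10 Mb of ESRP1 was −0.20. GRHL2, a grainyhead factor that activates CDH1 and EPCAM (chromosome 8, 102504667 to 102681954, plus strand), was listed at 0 in all 6 libraries, as was CDH1, which encodes E-cadherin.

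The order of mean FPKM over the 6 libraries was VIM, ZEB1, ZEB2, FN1, TWIST1, SNAI1, ESRP1 and EPCAM. ZEB2 overlapped in range with ZEB1 and with FN1, and SNAI1, ESRP1 and EPCAM overlapped with each other. VIM lay above and the last 3 below every other gene in all libraries. Two-sided exact permutation tests on the group means of FPKM gave p = 0.1, the smallest that 3 against 3 libraries allow, for FN1, ZEB2 and EPCAM. The exact permutation p was 0.2 for VIM, 0.4 for ZEB1, 0.6 for ESRP1, 0.7 for SNAI1 and 0.8 for TWIST1. No design of this size can reach 0.05 by such a test.

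**Figure D2:**
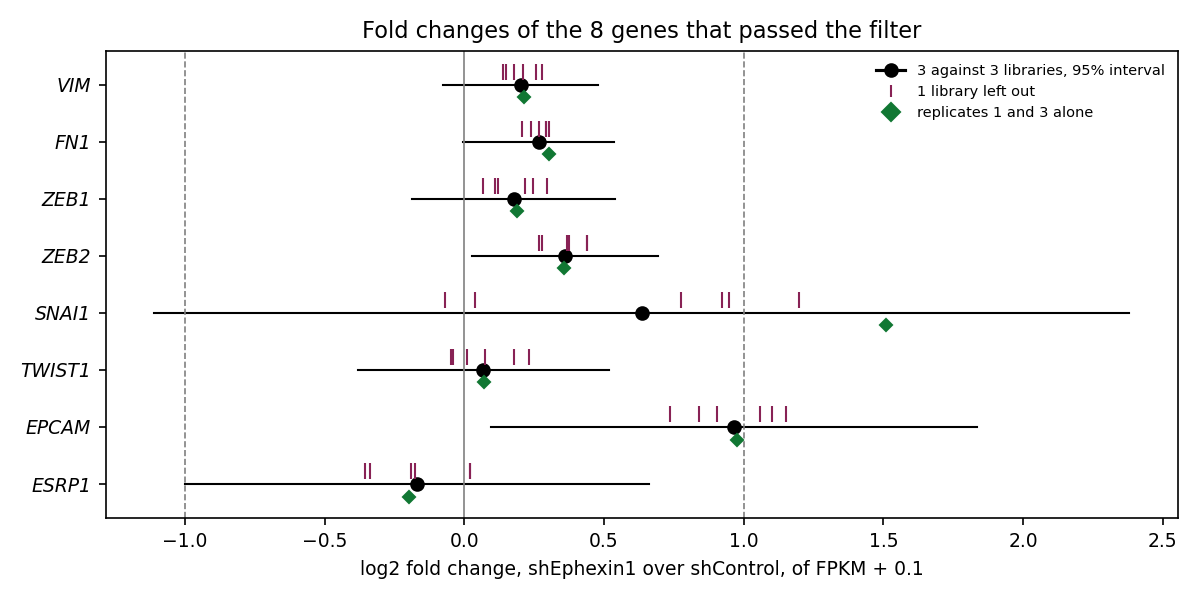
Log2 fold changes of FPKM + 0.1 between shEphexin1 and shControl for the 8 tested genes, with 95% intervals from limma, ticks for each library left out in turn and diamonds for replicates 1 and 3 alone. Dashed lines mark a fold of 2, and the intervals of ZEB2 and EPCAM exclude 0 before adjustment while the points of SNAI1, TWIST1 and ESRP1 cross it when 1 library is left out.

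The rest of the EMT programme was read from lists of further transcription factors, corepressors, mesenchymal and epithelial markers, splicing factors and TGF-beta components. Of 14 further EMT transcription factors, 10 were tested and 1 fell, PRRX1, a homeobox factor of mesenchymal cells. PRRX1 reached 2.07, 3.00 and 2.52 FPKM with shControl, whereas the shEphexin1 libraries held 0.940, 1.08 and 1.07 FPKM. Each shEphexin1 library was below each shControl library, with a log2 fold change of −1.20 (SE 0.192, limma adjusted p = 0.0161). The call was lost when any library but shEphexin1 replicate 2 was left out, with adjusted p of 0.0431 to 0.0847. The most abundant genes of the list were not called. HMGA2, a chromatin protein that raises SNAI1 and TWIST1, was at 274 ± 22.5 and 223 ± 15.6 FPKM (SD, n = 3, limma adjusted p = 0.145), and genes within 10 Mb of it had a median log2 fold change of −0.34, against −0.035 over all 11496 expressed genes with a position. TCF3, an E-protein partner of TWIST1, was at 31.6 and 29.3 FPKM (limma adjusted p = 0.805). The list's median log2 fold change was 0.017. Its groups were apart for 1 gene that was higher and 2 that were lower. Over all genes tested, 28.3% had groups apart in either direction and 1.89% were called.

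All 14 corepressors, chromatin regulators and regulators of SNAI1 stability were tested and none was called in limma. An unadjusted p under 0.05 was found for 5 of them, and for 3737 of all 16020 genes tested. Of the 14, 11 had a fold change below 0 and 3 above, with a median log2 fold change of −0.14. Among all genes tested, 48.9% were above 0. CTBP1, a corepressor that ZEB1 recruits, was at 78.1 ± 16.4 and 55.6 ± 12.9 FPKM (SD, n = 3, limma adjusted p = 0.237). HDAC1, a histone deacetylase, was at 68.5 ± 5.26 and 55.8 ± 3.67 FPKM (limma adjusted p = 0.151). The median log2 fold change of genes within 10 Mb was −0.19 for CTBP1 and 0.056 for HDAC1. RCOR1, the CoREST scaffold, had the smallest p and the opposite direction, at 21.6 ± 2.53 and 28.7 ± 1.30 FPKM (limma adjusted p = 0.0876).

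Of 29 mesenchymal markers, 21 were tested, 1 rose and 2 fell. Their median log2 fold change was 0.27, with 15 above 0 and 6 below, against 48.9% above 0 among all genes tested. The groups did not overlap for 11 that were higher and 3 that were lower in shEphexin1. Of all genes tested, 28.3% had groups apart in either direction, 12.8% had them apart and higher, and 1.89% were called. THY1, 1 of the 15 and of the 11, passed the filter only through the shEphexin1 libraries, so it had to differ and is not support for a direction. CTGF, a matricellular protein induced by TGF-beta and YAP, had values of 14.7, 13.8 and 13.2 FPKM under shControl, and of 29.5, 28.9 and 27.7 FPKM under shEphexin1, a log2 increase of 1.04 (SE 0.103, limma adjusted p = 0.00296). FSTL1, a secreted glycoprotein, gave 21.8, 20.7 and 21.8 FPKM in control cells, compared with 7.94, 7.86 and 7.37 FPKM after Ephexin1 depletion. It fell by 1.46 on the log2 scale (SE 0.105, limma adjusted p = 0.000864) and kept its call with each library left out. TNC, the matrix protein tenascin C, was at 0.625, 0.569 and 0.567 FPKM in shControl and was listed at 0, 0 and 0.0124 FPKM in shEphexin1 (limma adjusted p = 0.00323). TNC passed the filter only through the shControl libraries, so it had to differ and its call is not support for a direction. Apart from TNC, 1 mesenchymal gene was called higher and 1 lower, each with groups apart. CTGF lost its call without shControl replicate 1 or shEphexin1 replicate 1 (limma adjusted p of 0.0284 and 0.0313), and TNC without shControl replicate 1 (0.0336). The most abundant members were not called. AXL, a receptor tyrosine kinase, was at 770 ± 88.0 and 958 ± 101 FPKM (SD, n = 3, limma adjusted p = 0.200), and NT5E, the surface nucleotidase CD73, was at 329 ± 13.8 and 438 ± 38.9 FPKM (limma adjusted p = 0.0585).

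Of 29 epithelial markers, 21 were tested, 1 rose and 2 fell, and the median log2 fold change was 0.13. Of the 21, 11 had a fold change above 0 and 10 below, and the groups did not overlap for 7 that were higher and 4 that were lower in shEphexin1. Over all genes tested, 1.89% were called, 28.3% had groups apart in either direction and 12.8% had them apart and higher in shEphexin1. CLDN1, a tight junction claudin, was measured at 8.17, 8.36 and 6.91 FPKM in the 3 shControl libraries, against 2.32, 3.12 and 2.41 FPKM in the shEphexin1 libraries, a fall of 1.55 on the log2 scale (SE 0.165, limma adjusted p = 0.00385). DSP, the desmosomal plaque protein desmoplakin, reached 0.717, 0.755 and 0.578 FPKM with shControl, whereas the shEphexin1 libraries held 0.112, 0.114 and 0.147 FPKM (log2 fold change −1.80, SE 0.250, limma adjusted p = 0.0103). MUC1, a transmembrane mucin, had values of 1.20, 0.932 and 0.776 FPKM under shControl, and of 2.47, 2.38 and 2.82 FPKM under shEphexin1, a log2 increase of 1.33 (SE 0.203, limma adjusted p = 0.0139). The groups of these 3 genes did not overlap. Other junction genes of the list had higher values in shEphexin1 with groups apart but were not called, and they are named after their values were seen. Their log2 fold changes were 0.95 for CLDN3, 0.66 for CLDN4, 0.42 for OCLN and 0.53 for F11R (limma adjusted p of 0.120 to 0.168). JUP, PPL, MARVELD3 and CRB3 were below 0, and CLDN7, TJP1 and PKP3 above 0, with overlapping groups. The keratin genes KRT8 (−1.07, limma adjusted p = 0.0304) and KRT18 (−0.94, limma adjusted p = 0.0439) were lower with groups apart and not called. LLGL2 and SPINT2 were higher in the same way (1.00 and 1.20, limma adjusted p of 0.0496 and 0.0339). The median log2 fold change of genes within 10 Mb was −0.25 for KRT8 and KRT18, −0.30 for LLGL2 and 0.0051 for SPINT2. CLDN1 lost its call without shControl replicate 1 or shEphexin1 replicate 1 (limma adjusted p of 0.0398 and 0.0306), and DSP and MUC1 without any library but shEphexin1 replicate 2. The adjusted p then ranged from 0.0364 to 0.0725 for DSP and from 0.0373 to 0.0753 for MUC1. The most abundant genes of the list were KRT18, a simple-epithelium keratin, at 88.9 ± 20.9 and 46.2 ± 9.32 FPKM (SD, n = 3, limma adjusted p = 0.0439), and TJP1, a tight junction scaffold, at 36.1 and 39.7 FPKM (limma adjusted p = 0.561), and neither was called. With replicates 1 and 3 alone, 6 epithelial genes were called, adding KRT8, LLGL2 and SPINT2, which are named after their values were seen. In that setting 430 of all 16020 genes were called, against 303 over all 6 libraries.

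Of 13 epithelial transcription factors, 6 were tested and 1 fell, KLF4, a zinc finger factor of differentiated epithelium. TP63, another of the 6, passed the filter only through the shEphexin1 libraries, so it had to differ and is not support for a direction. KLF4 gave 4.37, 3.67 and 5.43 FPKM in control cells, compared with 1.61, 1.18 and 1.35 FPKM after Ephexin1 depletion, with a log2 fold change of −1.63 (SE 0.201, limma adjusted p = 0.00685). The groups were apart, and the call was lost without replicate 1 or replicate 3 of either group, with adjusted p of 0.0292 to 0.05. Genes within 10 Mb of KLF4 had a median log2 fold change of −0.30. KLF5, its relative, was at 4.48 and 5.24 FPKM (limma adjusted p = 0.547). FOXA1 was lower with groups apart and not called (log2 fold change −1.18, limma adjusted p = 0.0297). It was called at an adjusted p of 0.05 and is named after its values were seen. In this list the groups were apart for 2 genes that were higher, among them TP63, and 2 that were lower. Over all genes tested, 28.3% had groups apart and 1.89% were called. OVOL1, OVOL2, ELF5 and FOXA2, which like GRHL2 sustain epithelial gene expression, were listed at 0 in all 6 libraries. Of 8 further splicing regulators, 7 were tested and none was called in limma, with a median log2 fold change of −0.098. An unadjusted p under 0.05 was found for 1 of the 7, and for 3737 of all 16020 genes tested. The most abundant were PTBP1, a repressor of alternative exons, at 170 and 158 FPKM (limma adjusted p = 0.804), and SRSF1, an SR protein, at 148 and 118 FPKM (limma adjusted p = 0.203), where the genes within 10 Mb had a median log2 fold change of −0.52.

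Of 10 TGF-beta components, all tested, 1 rose, the ligand gene TGFB3. TGFB3 was measured at 0.964, 0.673 and 0.692 FPKM in the 3 shControl libraries, against 1.79, 1.76 and 2.12 FPKM in the shEphexin1 libraries, a log2 increase of 1.19 (SE 0.206, limma adjusted p = 0.0201). The groups were apart, but the call was lost with each of the 6 libraries left out, at adjusted p of 0.0311 to 0.0939, and under quantile normalization, a pseudocount of 1 FPKM or no filter on low FPKM. TGFB1, the most abundant ligand, was at 51.1 ± 7.41 and 85.1 ± 20.1 FPKM (SD, n = 3, limma adjusted p = 0.0811). SMAD3, the receptor-activated transcription factor of the pathway, reached 25.8, 26.0 and 26.3 FPKM with shControl, whereas the shEphexin1 libraries held 37.9, 36.3 and 38.0 FPKM. It passed the adjusted p (log2 fold change 0.52, SE 0.0924, limma adjusted p = 0.0215) but not the fold of 2. SMAD7, the inhibitory SMAD, did likewise, with 7.50, 8.06 and 8.43 FPKM in control cells against 14.5, 11.6 and 13.3 FPKM after depletion (log2 fold change 0.70, limma adjusted p = 0.0235), and it is named after its values were seen. Genes within 10 Mb of SMAD7 had a median log2 fold change of −0.50. Of the 10 genes, 5 had a fold change above 0 and 5 below, with a median of 0.086 on the log2 scale. Among all genes tested, 28.3% had groups apart in either direction and 1.89% were called. In this list the groups were apart for 4 that were higher and 3 that were lower. TGFBR2, SMAD2 and SMAD4 were those lower, not called and named after their values were seen. Their log2 fold changes were −0.36, −0.63 and −0.49 (limma adjusted p of 0.0792, 0.0885 and 0.0601). Genes within 10 Mb of them had medians of −0.095, −0.48 and −0.46.

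**Figure D3:**
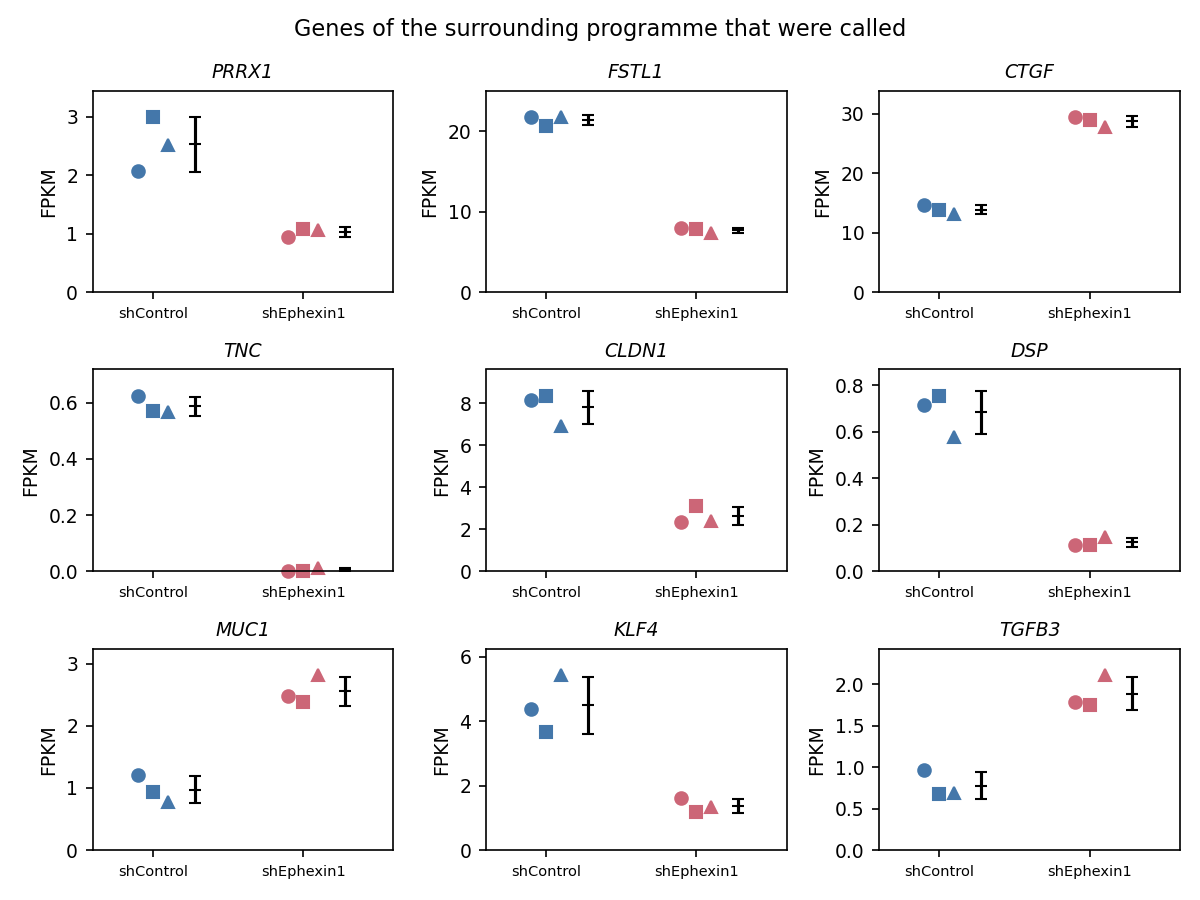
FPKM of the 9 called genes of the lists in each library, with the mean and SD of 3 libraries beside the points. PRRX1, FSTL1, TNC, CLDN1, DSP and KLF4 are lower and CTGF, MUC1 and TGFB3 higher in shEphexin1, and the groups of each gene do not overlap.

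**Figure D4:**
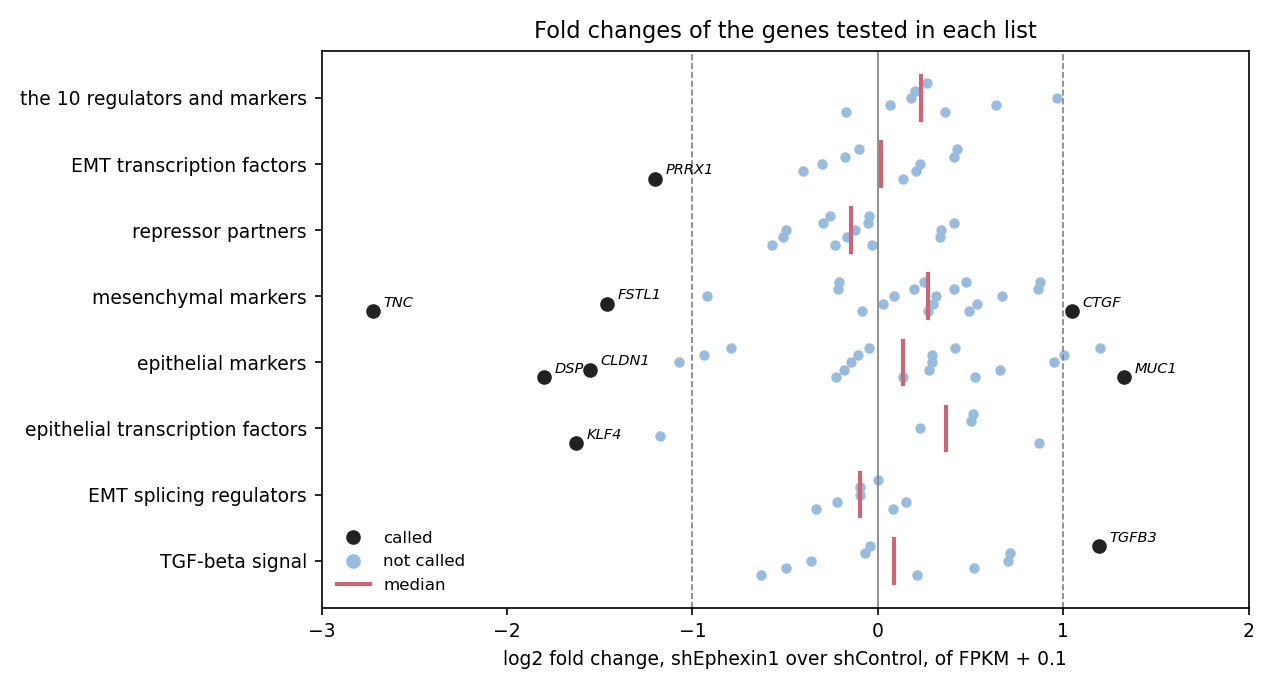
Log2 fold changes of FPKM + 0.1 for every tested gene of each list, with called genes named, a bar at each median and dashed lines at a fold of 2; the position of TNC depends on the pseudocount. The 8 EMT genes have a median of 0.23 and no called gene, and the medians of the other lists lie between −0.14 and 0.37. The highest median, of the epithelial transcription factors, includes TP63, which passed the filter only through the shEphexin1 libraries.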

How the data were processed

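Total RNA of 6 H1299 libraries was extracted with TRIzol and prepared with a stranded total RNA kit. Per the submitters' processing notes and the study's methods, the authors used bcl2fastq 2.20, mapped reads to hg19 with TopHat2 2.0.13 and ran Cufflinks 2.2.1. The deposited values are FPKM per gene and library after the authors' geometric normalization. The annotation behind them was not given in the sources used here. No read counts could be recovered, so depth is unknown, and 0 value columns were left out.

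From these values, log2(FPKM + 0.1) was fitted for genes that reached 0.1 FPKM in 3 or more libraries, in limma 3.58.1 (lmFit and eBayes with trend, R 4.3.3) without covariates. P-values were Benjamini-Hochberg adjusted over the 16020 genes tested, and intervals are 95% intervals of the moderated model. Exact permutation tests were two-sided. The fit was run on simulated data with independent noise and only large changes in genes that were not low. That run does not test it for small changes, low genes or linked replicates. Gene positions came from GENCODE release 44 on GRCh37, and promoters from RefSeq. Python 3.11.15, pandas 2.3.3 and matplotlib 3.10.9 were used.

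The members and lists were chosen with earlier results of these data known. Of each list, the text names every called gene, the 2 genes with the highest mean FPKM and, where none was called, the gene with the smallest p. For the member with the smallest p, the 3 most similar genes are named. In all, 17 alternatives were planned and 1, a term for replicate 2, was added after the data were seen.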

Additional observations from a re-analysis of the deposited data

How the results depend on the processing

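None of the 8 EMT genes was called under any alternative in which it was tested, which is 18 for VIM, FN1, ZEB1, ZEB2 and TWIST1 and 17 for SNAI1, EPCAM and ESRP1, since a filter of 1 FPKM in 3 libraries left these 3 out. Over the 6 fits with 1 library left out, the log2 fold change ranged from −0.070 to 1.20 for SNAI1, from −0.049 to 0.23 for TWIST1 and from −0.35 to 0.021 for ESRP1, and its sign changed for no other tested member. Of all genes tested, 303 were called in the analysis reported, 139 at a pseudocount of 1 FPKM and 314 with median centring. An adjusted p of 0.05 gave 464, replicates 1 and 3 alone gave 430 and a term for replicate 2 gave 564. There were 61, 189 and 121 calls without shControl replicates 1, 2 and 3, and 79, 316 and 109 without shEphexin1 replicates 1, 2 and 3. A pseudocount of 1 FPKM left 1 gene called in the mesenchymal markers (FSTL1), 1 in the epithelial markers (CLDN1) and 1 in the combined regulator lists (KLF4), against 3 in each. Without a filter on low FPKM, 1 regulator was called. Median centring gave 5 epithelial genes, and an adjusted p of 0.05, replicates 1 and 3 alone and the term for replicate 2 gave 6 each. With 1 library left out, the counts ranged from 1 to 4 mesenchymal, 0 to 4 epithelial and 0 to 2 regulator genes, and the lowest mesenchymal and epithelial counts came without shControl replicate 1, the epithelial one also without shEphexin1 replicate 1. The cause of these changes was not tested.

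Replicate numbers were compared by the correlation of deviations from the group means over the 16020 genes tested. It was 0.0914 for replicate 1, 0.43 for replicate 2 and 0.3275 for replicate 3, and from −0.3828 to 0.08865 between unlike numbers. The numbers were not taken as pairs, since replicate 1 was below the minimum of 0.1 used for pairing. Every library nevertheless correlated best with its own number, so this choice is open, and the fit with pairs is given beside it. With the replicate number as a block, 556 genes were called (309 higher and 247 lower), of them 6 epithelial markers and none of the 8 EMT genes. At any fold, VIM (limma adjusted p = 0.0187) and ZEB2 (0.00635) then passed the adjusted p, as did NGEF (0.00284). Depth is unknown, which limits what the levels below 1 FPKM of EPCAM, ESRP1 and SNAI1 can show.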
